A study of Mus musculus with 5 samples.

Results

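The genes examined were 9 genes through which alveolar macrophages (AMs) receive GM-CSF and M-CSF: the receptor chains Csf2ra, Csf2rb, Csf2rb2 and Csf1r, the kinase Jak2, the transcription factors Stat5a and Stat5b, and the feedback inhibitors Cish and Socs3. They were chosen by name, and a peak was counted for a gene where that gene had the protein-coding transcription start site (TSS) nearest to the peak midpoint in GENCODE. By this rule 6 of 14808 RXRα peaks belonged to the 9 genes, of 21728 protein-coding genes in all. All 6 were in 1 library, WT G. The WT A, KO A and KO G lists held 0 peaks for these genes. The question put to the data was whether RXRα was detected at the receptors that bring niche cytokine signals into AMs, and whether that signal depended on RXRs.

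RXRα was profiled by HT-ChIPmentation, a chromatin immunoprecipitation in which Tn5 transposase adds the sequencing adapters while the chromatin is still bound to the beads, in AMs washed from mouse lungs and sorted by flow cytometry. All mice carried floxed Rxra and Rxrb. WT A and WT G came from mice labelled CD11cCre- Rxrabfl/fl and had no Cre. KO A and KO G came from mice labelled CD11cCre+ Rxrabfl/fl, in which Cre is driven by Cd11c, a gene that other myeloid cells also use, so the deletion is not limited to AMs. A further sample was the input, against which the authors called peaks in each ChIP library separately, and no agent or time course was part of the groups. Peak lists do not measure expression, so the labelled cell type was not checked by its markers, and the labels do not say whether the libraries of a genotype came from separate mice.

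GM-CSF binds the α chain made from Csf2ra, which then pairs with the signalling β chain made from Csf2rb. Mice also have Csf2rb2, a close paralogue of Csf2rb that encodes a β chain for the IL-3 receptor. The paired receptor activates JAK2, which phosphorylates STAT5A and STAT5B, and these enter the nucleus and switch on genes that include Cish and Socs3, whose products damp the same receptors. M-CSF and IL-34 act through CSF1R, a receptor tyrosine kinase on which most macrophages rely, whereas AMs are known for their need of GM-CSF from the alveolar epithelium.

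The 6 peaks lay at 4 of the 9 genes, and the sequence at each summit is shown here because it is the stretch of DNA to which the signal was assigned. Each line gives 50 bases to either side of the summit in mm10, on the forward strand, less annotated UTR bases beyond a match. Capitals mark exact matches to the STAT motif (TTCNNNGAA) or to the nuclear receptor hexamer (AGGTCA, here read from the other strand).

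Csf2ra, weaker peak, chr19:61227212-61227312: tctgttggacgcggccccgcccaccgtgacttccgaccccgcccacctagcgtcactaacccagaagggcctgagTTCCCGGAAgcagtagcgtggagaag
Csf2ra, stronger peak, chr19:61228285-61228340: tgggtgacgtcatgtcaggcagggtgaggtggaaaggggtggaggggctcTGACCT
Csf2rb2, weaker peak, chr15:78298795-78298895: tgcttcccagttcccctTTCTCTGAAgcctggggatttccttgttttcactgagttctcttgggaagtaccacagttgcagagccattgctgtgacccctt
Csf2rb2, stronger peak, chr15:78299054-78299154: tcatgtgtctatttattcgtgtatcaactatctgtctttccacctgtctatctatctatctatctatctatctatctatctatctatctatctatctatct
Cish, chr9:107295928-107296025: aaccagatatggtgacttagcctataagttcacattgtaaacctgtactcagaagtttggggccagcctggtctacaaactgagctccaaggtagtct
Socs3, chr11:117959827-117959927: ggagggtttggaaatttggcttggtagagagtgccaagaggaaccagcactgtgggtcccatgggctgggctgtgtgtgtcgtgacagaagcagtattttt

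Among the receptor chains, Csf2ra had a pair of WT G peaks at its start sites. The stronger covered chr19:61228173-61228398, 226 bp, with its summit at 61228335, 83 bp downstream of the upstream start site. Its fold enrichment, the ratio of ChIP fragments at the summit to the local background with a pseudocount of 1 on each, was 5.80, its −log10 q was 4.64, and 8 fragments lay at the summit. The weaker covered chr19:61227003-61227439, 437 bp, with its summit 114 bp downstream of the other start site. It had a fold enrichment of 4.51, a −log10 q of 2.63 and 6 fragments. The summits were 1073 bp apart, both lay in intronic sequence although the weaker peak also spanned exons, and no WT A, KO A or KO G peak overlapped either. In WT A the nearest peak to Csf2ra was 279.7 kb away and was nearest to Grk5.

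Csf2rb, which encodes the signalling β chain for GM-CSF, had 0 peaks in the WT A, WT G, KO A and KO G lists, and so did Csf1r, which encodes the M-CSF receptor. The WT G list placed its nearest peak 26.6 kb upstream of Csf2rb, and that peak lay inside Csf2rb2. For Csf1r the nearest WT G peak was 30.9 kb upstream, closer to a start site of Pdgfrb, a receptor tyrosine kinase gene, with 7 fragments and a −log10 q of 3.61. Both distances were shorter than in WT A, where the nearest peak was 67.4 kb from Csf2rb and 226.5 kb from Csf1r.

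Csf2rb2 held the other pair of WT G peaks, both in its introns. The stronger, chr15:78298972-78299310, 339 bp, had its summit 6.52 kb downstream of the Csf2rb2 start site, with a fold enrichment of 5.80, a −log10 q of 4.64 and 8 fragments. The weaker, chr15:78298702-78298916, 215 bp, had a fold enrichment of 4.51, a −log10 q of 2.63 and 6 fragments. They were separated by 55 bp, with 259 bp between the summits. WT A, KO A and KO G had no peak over either.

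The start sites of Csf2rb and Csf2rb2 are 20.03 kb apart, and the genes share long identical stretches. Of the 50-base words of Csf2rb2, 15.8% occurred more than once in the locus taken with 100 kb on each side, and 13.3% of those of Csf2rb did. In the weaker Csf2rb2 peak 28.3% of the words were repeated in the locus and in the stronger peak 3.10%, so part of the weaker peak could not be placed by its sequence alone. The stronger peak held a run of 14 tcta units, seen in its summit window above, and 60.5% of its bases were soft-masked as repeats in the reference, where 5.01% of WT G peaks were masked over more than 50% of their bases. The summit of the Cish peak also lay in soft-masked sequence, which made up 34.4% of that peak, and the summits of the other 4 peaks did not. A run of at least 14 units of any 4-base repeat was present in 34 of the 9766 WT G peaks, or 0.348%. The part of these repeats in the peaks was not tested.

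The signalling genes had no peaks. Jak2, the kinase shared by the β chain receptors, had 0 peaks in the WT A, WT G, KO A and KO G lists, and it was the only one of the 9 genes with no peak of any gene within 100 kb. Its nearest peak was 114.1 kb downstream in WT G, at Cd274, and 167.7 kb downstream in WT A, at Pdcd1lg2. Stat5a and Stat5b, which lie head to head with start sites 8.63 kb apart, had 0 peaks as well. The nearest WT G peak was 78.0 kb from Stat5a and 87.7 kb from Stat5b, and was nearest to Stat3, with a −log10 q of 5.73. WT A instead had its nearest peak on the other side of the pair, at Kcnh4, 100.1 kb from Stat5a and 63.3 kb from Stat5b. The pair of STAT5 genes thus had different nearest peaks in the WT lists.

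The feedback inhibitors, both known STAT5 targets, had 1 WT G peak each. The Cish peak covered chr9:107295854-107296068, 215 bp, with its summit 48 bp upstream of the first annotated start site, and its last bases overlapped the first exon. It lay within the annotated gene Gm17040. Its fold enrichment was 5.80, its −log10 q was 4.64 and it had 8 fragments. The Socs3 peak, chr11:117959763-117959989, 227 bp, was intergenic, 9.31 kb downstream of the start site and beyond the end of the gene, with the same 3 values as Cish. Pgs1 had the next nearest start site, 26.4 kb away, and Mapkapk3 was next nearest to the Cish peak at 6.08 kb. In WT A the nearest peak was 15.04 kb from Cish and 138.6 kb from Socs3.

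The surroundings of Cish held more peaks than those of the other 8 genes. Within 100 kb of its start sites there were 6 peaks in WT G and 4 in WT A, and all but the Cish promoter peak were nearest to Mapkapk3, a kinase gene. At 15.2 kb upstream of Cish, in an intron of Mapkapk3, a region had a peak in both WT lists, where WT A had a −log10 q of 6.16 with 15 fragments and WT G had 9.26 with 12 fragments. A pair of further Mapkapk3 regions with peaks in both WT lists lay 31.3 and 31.8 kb upstream. The other such region was in an intron of Ncf4, a gene of the NADPH oxidase, 47.6 kb from Csf2rb2 and 67.7 kb from Csf2rb. It had the highest −log10 q near any of the 9 genes, 11.3 with 21 fragments in WT A and 13.2 with 15 fragments in WT G. Thus 4 regions with a peak in both WT lists lay within 100 kb of 3 of the genes, each nearest to a neighbour, and 0 of the 4 had a KO peak on it, beside 201 of all 3423 such regions (5.87%), so that a count of 0 among 4 carries little information. WT G had 18 peaks within 100 kb of the 9 genes and WT A had 8, of which 12 and 8 were nearest to other genes, while KO A and KO G had 0. The KO lists were short, with 83 peaks in KO A and 208 in KO G, beside 4751 in WT A and 9766 in WT G. Their counts of 0 therefore carry little information.

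**Figure D1:**
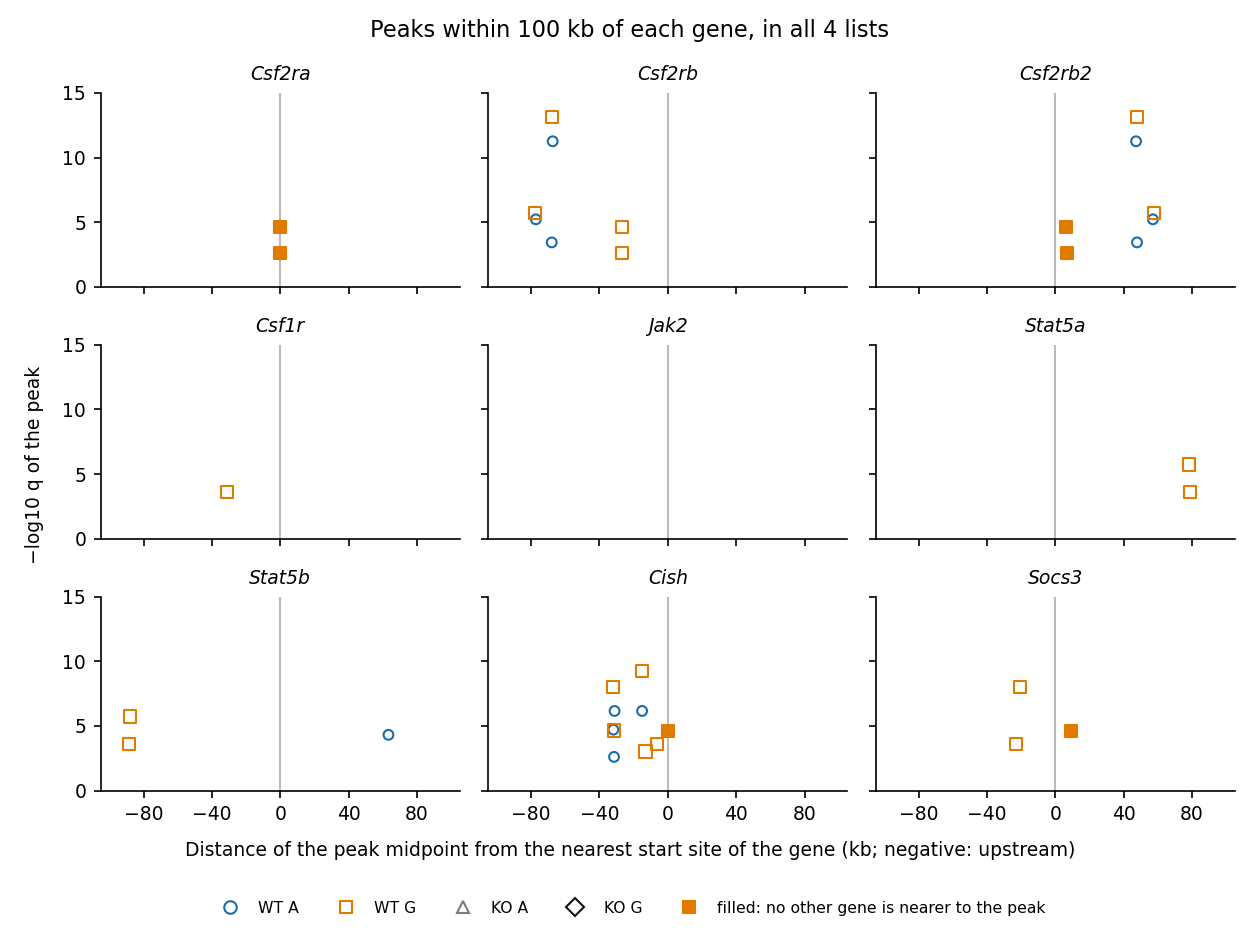
Each panel shows the peaks within 100 kb of 1 gene, by distance of the midpoint from the nearest start site of that gene (kb, negative upstream) and −log10 q. Circles are WT A and squares WT G, KO A and KO G have no point, and filled squares are the 6 peaks for which no other gene has a nearer start site. The filled squares lie at Csf2ra, Csf2rb2, Cish and Socs3, and the highest points are the Ncf4 region seen from Csf2rb and Csf2rb2.

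The counts were set beside those of all protein-coding genes. In WT A 0 of the 9 genes had a peak, against 10.5% of protein-coding genes, and in WT G 4 of the 9 had one, against 16.7%. In KO A and KO G 0 of the 9 had a peak, against 0.354% and 0.865%, shares so low that a count of 0 among 9 genes carries little information. A region with a peak in both WT lists was found for 0 of the 9 genes, against 8.9% of all. A WT G peak within 1 kb of a start site was found for 2 of the 9, Csf2ra and Cish, against 6.19%. The counts of 0 in WT A and for regions in both lists are also close to those shares, which come to fewer than 1 gene in 9. With 9 genes chosen by name, these shares describe the genes and were not tested.

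The number of peaks per list was 0 in WT A and 6 in WT G, a mean of 3 ± 4.24 (SD, n = 2), and 0 in both KO lists. An exact permutation test (two-sided) over the 4 libraries gave p = 1, where the smallest p that 2 libraries against 2 can give is 0.333. With peaks in 1 list only, every assignment of the libraries gives the same difference, so this p was set by the counts and the test says nothing about genotype at these genes. The WT lists differed from each other by as many peaks as WT G differed from each KO list, and the ratio of WT to KO has no value because its denominator is 0.

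WT G had the longest list and was the shallowest library. Depth was derived from the fold enrichment and −log10 p of the peaks, since the lists carry no read totals, and WT A was 4.77 times, KO A 2.73 times and KO G 3.58 times as deep as WT G. Because the pseudocount lowers the fold enrichment more where the background is low, the lists were compared by the fragments at the summit over the local background with no pseudocount. This ratio was 14.5 at the 4 stronger peaks and 10.9 at the 2 weaker ones. The local background of the 6 peaks was the genome-wide level. At sites with that background, the lowest ratio among called peaks was 7.05 in WT A, 10.4 in KO A and 8.55 in KO G. These values describe called peaks only. The part of the difference in depth in the WT G peaks was not tested.

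**Figure D2:**
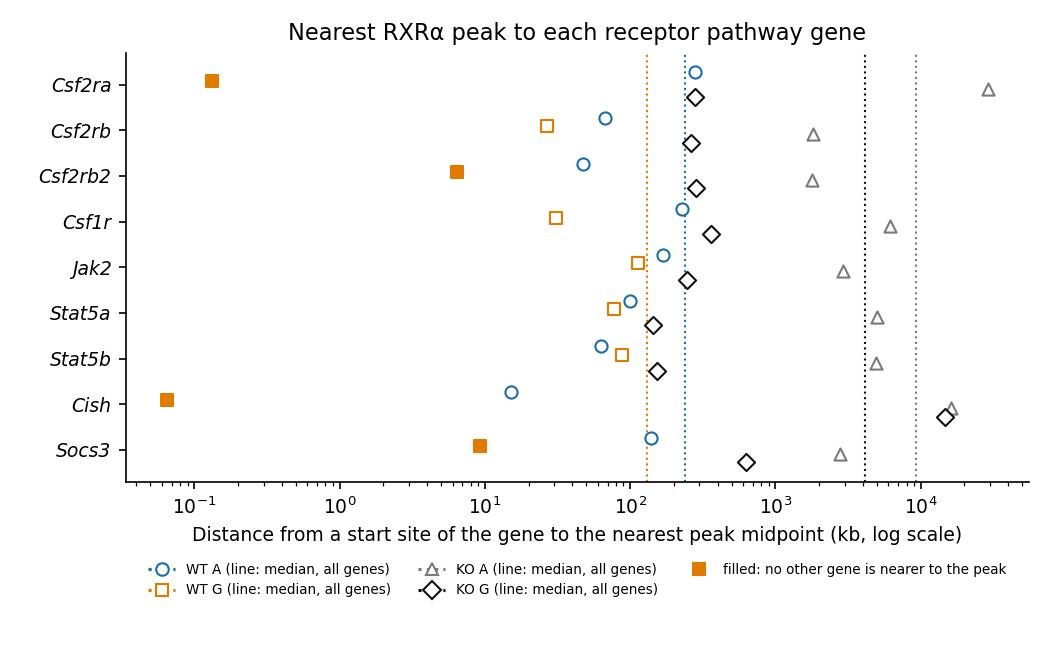
For each of the 9 genes, the distance (kb, log scale) from a start site to the nearest peak midpoint in the 4 lists, with filled symbols where no other gene has a nearer start site and a dotted line at the median over all protein-coding genes for that list. The WT G squares run from 0.065 kb at Cish to 114.1 kb at Jak2, the WT A circles from 15.04 to 279.7 kb, and the KO symbols lie at 142.7 kb or further.

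The median distance of the 9 genes to the nearest peak was shortest in WT G. It was 26.6 kb there, against 131.1 kb over all protein-coding genes, and in WT A it was 100.1 kb against 236.9 kb. Of the 9 genes, 9 in WT G and 8 in WT A were nearer to a peak than the median gene. The KO A list placed 7 of the 9, and the KO G list 8, nearer than the median gene, although their nearest peaks were at least 1793 kb and 142.7 kb away. The median over the 9 genes was 4953 kb in KO A, against 9220 kb over all genes on chromosomes with a peak, and 280.6 kb in KO G, against 4118 kb, so being nearer than the median gene was not limited to the WT lists. In the plot of nearest distances, Cish, Csf2ra, Csf2rb2 and Socs3 were the nearest to a WT G peak, and Cish was also the nearest to a WT A peak.

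The 6 peaks were at the median strength of WT G or below it. The 4 with 8 fragments shared their −log10 q of 4.64 with 1588 WT G peaks in all, a class that contains the median of the list, and 47.0% of the list had a higher value. The 2 with 6 fragments were in a class of 781, and 88.9% of the list had a higher value. Overlap with WT A rose with the number of fragments: 19.5% of WT G peaks with 8 fragments overlapped a WT A peak, 47.1% of those with 10 and 95.5% of those with 15. In the 2 classes of −log10 q, 317 of 1588 peaks (19.96%, 95% exact binomial interval 18.02 to 22.01) and 99 of 781 (12.7%, interval 10.4 to 15.2) overlapped a WT A peak, and for those within 1 kb of a start site the shares were 12.7% (interval 9.39 to 16.7) and 7.19% (interval 3.77 to 12.2). The intervals cover counting error only. The absence of a WT A peak over the 6 is thus what most WT G peaks of the same strength showed, at promoters and elsewhere.

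**Figure D3:**
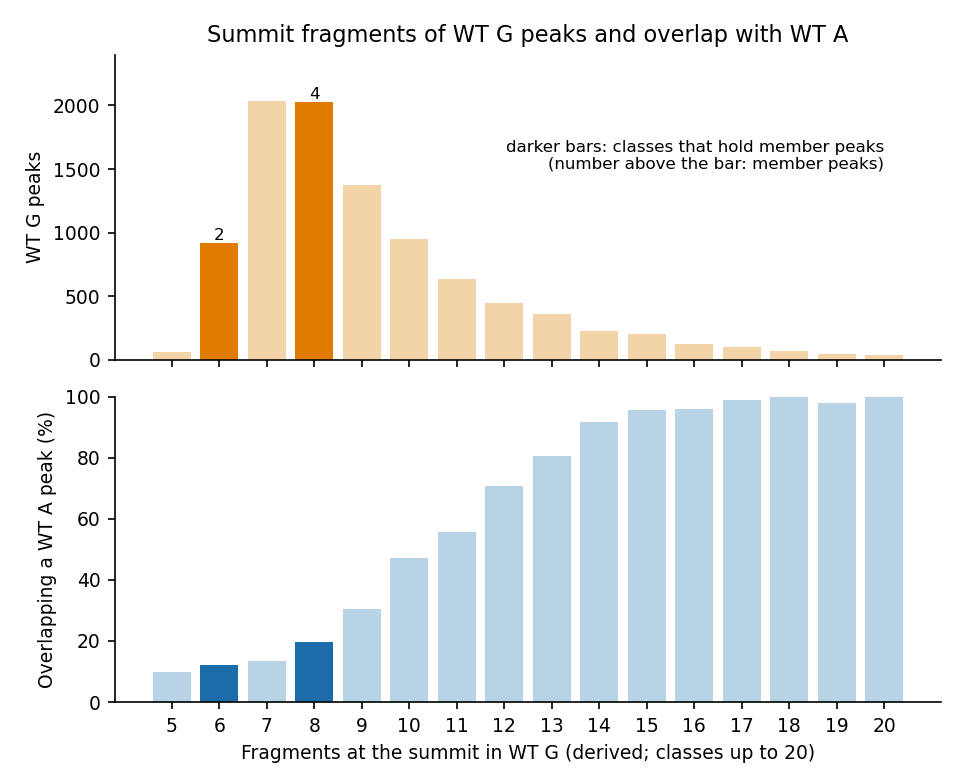
Upper panel, the number of WT G peaks by fragments at the summit (derived, classes up to 20), with the number of peaks of the 9 genes above the darker bars, and lower panel, the percent of each class that overlapped a WT A peak. The 6 peaks sit in the classes of 6 and 8 fragments, where 12.2% and 19.5% of WT G peaks overlapped a WT A peak, against 91.6% with 14 fragments.

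The summits were then searched for the motifs of RXR dimers. DR1, the hexamer AGGTCA repeated with 1 base between, on which RXR pairs with PPARγ, was searched with at most 2 mismatches on both strands within 50 bp of the summit. It matched 0 of the 6 windows, against 3.34% of all WT G windows and 1.54% of windows 500 bp to each side. DR4 and DR5, with 4 and 5 bases between, matched 0 of 6, against 1.34% and 1.46%. At shares this low, 0 of 6 is close to the background, and DR1 with at most 3 mismatches matched 2 of 6, against 13.9%. A single exact hexamer lay at the summit of the stronger Csf2ra peak, 3 bp from it, and 9.91% of all WT G windows held one. Over the whole peak, the weaker Csf2ra peak, the widest of the 6 at 437 bp, held 3 such hexamers, and the Csf2rb2, Cish and Socs3 peaks held 0. The share of all WT G peaks with a hexamer over the whole peak was not counted, so these counts have no background.

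The STAT motif TTCNNNGAA matched 2 of the 6 windows exactly, against 3.31% of all WT G windows and 3.04% of the flanking windows. One was TTCTCTGAA at chr15:78298812-78298820, in the intron of Csf2rb2, 29 bp from the summit of its weaker peak. The other was TTCCCGGAA at chr19:61227287-61227295, in a coding exon of Csf2ra, 29 bp from the summit of its weaker peak. Both are the capitals in the sequences above. They lie in the 2 peaks with 6 fragments, found in WT G only, and the count of matches was not tested. The PU.1 core GAGGAAGT and the C/EBP motif TTGCNNAA, for factors that set up macrophage enhancers, matched 0 of 6, against 2.61% and 8.13%. At these shares too, 0 of 6 is close to the background. GC content was 65.3% at both Csf2ra summits, against a median of 50.5% for WT G peaks within 1 kb of a start site, and 44.6% at the Cish summit.

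Promoter sequences from RefSeq (GRCm38.p6, 250 bases before to 50 after a start site) matched 7 of the 9 genes in 9 entries, and Csf2rb and Csf1r had no entry. The Cish promoter held 2 STAT motifs, TTCCTGGAA at chr9:107296659-107296667 and TTCTTGGAA at chr9:107296670-107296678, and 0.457% of the 32851 promoters held 2 or more. This promoter belongs to the downstream of the annotated Cish start sites, and the WT G peak, at the upstream one, ended 340 bp before it. The Socs3 and Csf2rb2 promoters held 1 each, TTCTTAGAA and TTCTGAGAA, against 8.30% of promoters with at least 1, and had no WT G peak on them. The Csf2ra promoter was the only one of the 9 entries with a WT G peak on it, and it held 0 STAT motifs and 0 hexamers. The Jak2, Stat5a and Stat5b promoters held 0 STAT motifs. A hexamer was present in both Stat5a entries and in 1 of the 2 Stat5b entries, against 16.3% of promoters, and a PU.1 core in the Csf2rb2 promoter, against 3.20%. A match of letters is a description and does not show that a factor bound there.

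Other genes of the pathway, 43 in all, were counted in the same way by role. Of the 6 ligand genes, Csf1 and Csf3 had WT G peaks and 0 had a WT A peak. The 3 related receptor chains Il3ra, Il5ra and Csf3r had 0 peaks in the 4 lists. Of 5 kinases, Lyn and Fes had peaks in both WT lists and Jak1, Jak3 and Tyk2 had 0 in any. The 8 other negative regulators had 0 peaks in WT A, and Cbl, Cblb and Inpp5d had peaks in WT G. Of the 3 other STATs, Stat6 had a peak in both WT lists and Stat3 in WT G. The adapters had a peak for 3 of 5 in WT A and 4 of 5 in WT G, the PI3K and MAPK arm for 3 of 5 and 4 of 5, and the known STAT5 targets for 4 of 8 and 7 of 8. In all, WT A had a peak for 13 of the 43, beside 10.5% of all protein-coding genes, and WT G for 24, beside 16.7%. Neither KO list had any, beside 0.354% and 0.865%, and this too is close to those shares. These counts were not tested.

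A region with a peak in both WT lists was found for 11 of the 43, beside 0 of the 9 and 8.9% of all protein-coding genes. These 11 genes held 28 such regions. A KO peak lay on 0 of the 28, beside 5.87% of all 3423 regions of this kind, and at that share a count of 0 among 28 carries little information. Of the 11, 4 were known STAT5 targets, 2 adapters, 2 of the PI3K arm, 2 kinases and 1 a STAT, while the ligands, the related receptor chains and the negative regulators had 0. Pim1, a survival kinase gene induced by STAT5, had 10 peaks in WT A and 17 in WT G, and 7 regions in both. Its strongest region, chr17:29434678-29436167, 55.3 kb upstream, reached a −log10 q of 37.0 (WT A) and 38.1 (WT G). Mcl1, an antiapoptotic gene, had 6 and 13 peaks, and its strongest region, chr3:95650586-95651997, 7.496 kb upstream, had 13.5 and 15.9. Ccnd2, which encodes cyclin D2, had 6 and 7 peaks, and its strongest region, chr6:127236495-127237095, 85.7 kb upstream, had 13.5 and 10.5.

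Among the adapters and kinases, Gab2, a docking protein gene of the β chain receptors, had its strongest region at chr7:97026527-97027261, 54.7 kb upstream, where the −log10 q was 14.7 (WT A) and 11.8 (WT G). Pik3r1, which encodes a regulatory subunit of PI3K, had 4 regions in both lists, the strongest at chr13:101540122-101540954, 152.1 kb downstream, with 12.4 and 10.5. Lyn, a Src family kinase gene, had 4 WT A and 11 WT G peaks but 1 region in both lists, with 4.71 and 9.26. Grb2, an adapter of the RAS pathway, had 8.06 and 4.64 at chr11:115692734-115693266 in its intron. Pik3cd, which encodes a catalytic subunit of PI3K in leukocytes, had 8.06 and 6.88 at chr4:149702498-149703039, 1.18 kb upstream. Id1, a STAT5 target that encodes an inhibitor of helix-loop-helix factors, tied with them in WT A, with 8.06 and 5.73 at chr2:152741391-152742020, 5.46 kb downstream.

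**Figure D4:**
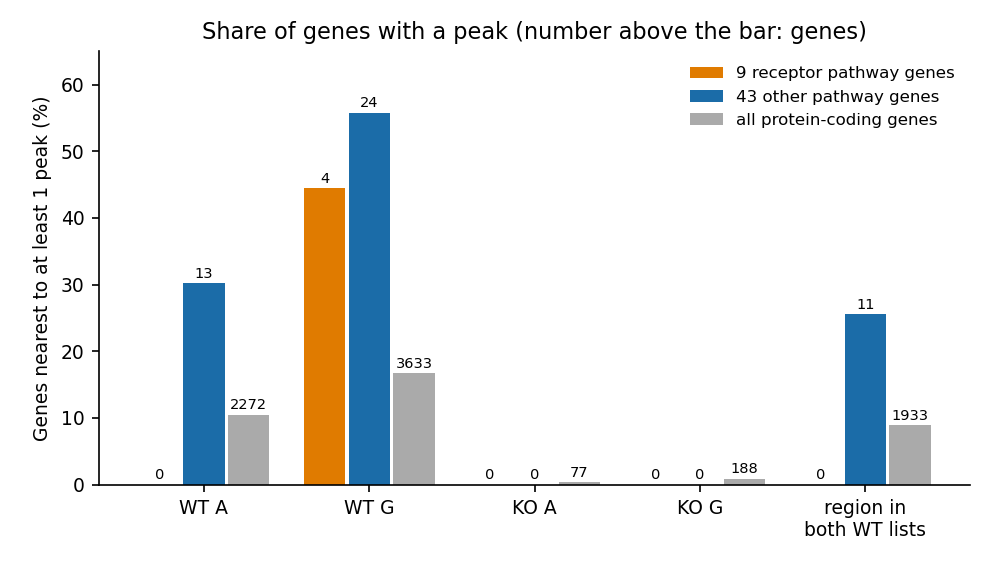
Percent of genes nearest to at least 1 peak, in each list and for regions with a peak in both WT lists, for the 9 receptor pathway genes, the 43 other genes of the pathway and all protein-coding genes, with the number of genes above each bar. The 9 genes have a bar in WT G only (4 genes), and the 43 have bars in WT A (13), WT G (24) and for regions in both lists (11). Neither has one in the KO lists. A count of 0 of 9 is close to the share of all genes in WT A, in the KO lists and for regions in both lists.

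Csf2ra and Csf2rb2 had the same pattern over the 4 lists, 2 peaks in WT G and 0 in each of the other lists. By the distance between numbers of peaks over the 4 lists, 259 genes had exactly this pattern, and for 72 of them the highest fold enrichment was also the same, so no shorter list of most similar genes could be drawn. Of the 43 other pathway genes, Csf1, Stat3, Cbl and Bcl2l1 had the same numbers of peaks, and none was among the 72.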

How the data were processed

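The authors used Cutadapt for trimming, Bowtie2 for alignment to mm10 and SAMtools to drop duplicate and low quality pairs, and called peaks with MACS3 for each ChIP library against the input at a q threshold of 0.05. The deposited lists give a fold enrichment (a ratio at the summit with a pseudocount of 1), a −log10 p, a −log10 q, a score made from the q-value, and the summit position. The authors' read count model could not be refitted, since the lists hold no read counts.

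The 9 genes and the other gene lists were chosen with earlier results of these data known. Peaks were assigned by midpoint to the nearest protein-coding TSS of GENCODE M21 (basic set), and WT peaks were merged at an overlap of 1 bp. The reference genome used (GRCm38.p6) is the same build. Fragments at summits were solved, as a Poisson tail, from the −log10 p and fold enrichment that the authors deposited, taking a pileup as whole within 0.004 (0.012 in WT A), which solved 4749 of 4751 WT A peaks and all peaks of the other lists. Relative depth took the shortest peak of a list as its fragment length and was not checked against read totals. Motifs were exact except DR1, DR4 and DR5. Soft-masking and 4-base runs were added after the sequences were seen. The nearest-gene, merging and overlap steps were tested on simulated data (Python 3.11.15, numpy 2.4.6, scipy 1.17.1). All 9 members were named, and of the 43 others those with a region in both WT lists and the highest −log10 q, up to 8 by the rule and 9 here because 3 tied for the last places. A further gene of the pathway list is not reported here.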

Additional observations from a re-analysis of the deposited data

How the results depend on the processing

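The peaks at the 9 genes rested on WT G. With both WT lists held to 4751 peaks by −log10 q, WT G kept 0 peaks at 0 of the 9 genes and the WT minus KO difference fell to 0. That length falls inside a tie of 1588 WT G peaks, of which 158 were kept by fold enrichment and then order in the list, and 4 peaks at the 9 genes share the tied value. With all tied peaks kept, 4 peaks at 4 genes remained and the difference was 2. Counting all peaks within 100 kb of a start site gave 8 peaks in WT A, 18 in WT G at 8 genes, 4 regions in both WT lists and 3 genes with one, and a WT minus KO difference of 13 (exact permutation p = 0.333, the smallest possible). That difference is not scaled to the lengths of the lists, and the KO lists were far shorter. Leaving out 1 WT library leaves a single WT list, so the regions are then its own peaks and not regions in both lists. There were 6 at 4 genes without WT A and 0 at 0 genes without WT G. Leaving out any of the 4 libraries gave a WT minus KO difference of between 0 and 6, given without a test since 1 arm then has a single library. At a −log10 q of at least 3 WT G kept 4 peaks at the same number of genes. With gene ends as start sites it had 7 at 5, the added gene being Csf1r (7 fragments, 25.9 kb upstream). With the letters A and G as a replicate block the difference stayed 3 (exact p = 1). DR1 with at most 3 mismatches matched 2 of 6 windows (13.9% of all WT G windows). The ratio of WT to KO gave no value, since the KO lists held 0 peaks at the 9 genes. Alternatives on KO peaks or motifs of regions in both WT lists gave no value either, since no such region belonged to the 9 genes. The counts per list, the WT minus KO difference, the treatment of ties and the motif counts at WT G summits were added after seeing the data. The peaks at the 9 genes rested on 6 or 8 fragments each, and how far such low numbers limit detection was not tested.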
